A study of Mus musculus with 8 samples.

Results

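The genes described here are 42 genes of the non-collagen interstitial extracellular matrix of the heart, the material between the cells. They were taken as a list by role: adhesive and matricellular glycoproteins, small leucine-rich proteoglycans, hyaluronan-binding proteins, the proteins and crosslinking enzymes of elastic fibres, and 3 further matrix genes. Each symbol was matched to the loci of the deposited tables, and all 42 were found among 39614 loci that carry a gene symbol (annotated loci). RNA-seq had been made from whole hearts, without the atrial appendages, of male mice of the Hsd:ICR(CD-1) stock. The groups were 4 hearts at postnatal day 1 (P1) and 4 hearts at postnatal day 7 (P7), with 1 mouse and 1 library of ribosome-depleted RNA per heart. No mouse carried a named genetic change or received a treatment, so age is the only factor of the design. Expression is given as FPKM, a count of fragments scaled to the length of the locus and to the size of the library.

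The interstitial matrix holds cells in place and carries force between them. Collagen fibrils give it stiffness, and the genes described here encode what surrounds those fibrils. Elastic fibres let the tissue recoil: a core of crosslinked elastin lies on microfibrils of fibrillin, and fibulins, microfibril-associated proteins and lysyl oxidases take part in their assembly. Small leucine-rich proteoglycans such as decorin bind collagen and set how fibrils form. Matricellular proteins such as periostin, SPARC and the thrombospondins bear little load and instead change how cells attach and respond to growth factors. Versican and its link protein bind hyaluronan in the soft, hydrated matrix of the embryonic heart. In the heart most of these proteins come from fibroblasts, valve interstitial cells and the cells of the vessel wall.

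The RNA came from heart tissue by its markers: the ventricular light chain gene Myl2 read 8876 to 15880.0 FPKM over the 8 hearts. The files hold no fragment counts. The smallest steps between low values gave the worth of 1 fragment as 1.24 to 1.64 times that in P1 replicate 1, with 3.92% to 19.7% of the loci compared in the leading bin, so depth is known only roughly. Some libraries stood apart. P1 replicate 4 was the highest P1 heart for 35 of the 42 genes, and P7 replicate 2 was the lowest P7 heart for 29. The median over all annotated loci moved the same way: its log2 ratio to the stage mean was 0.25 in P1 replicate 4 and -0.21 in P7 replicate 2, against 0.42 and -0.33 for the median of the 42 genes. P1 replicate 3 listed 28662 loci at 1 FPKM or more against 20269 to 22292 in the other 7 hearts. Counts of genes that passed the test are therefore given with and without single hearts. In whole-heart RNA, more cells of a type and more RNA per cell cannot be told apart.

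From P1 to P7 the RNA of 8 of 15 elastic fibre genes, 4 of 7 small leucine-rich proteoglycans, 3 of 14 adhesive and matricellular genes and the collagen chaperone gene Serpinh1 rose 1.83- to 4.1-fold, while periostin, versican, lysyl oxidase and fibrillin 2 did not pass the test. Of the 42 genes, 40 reached 1 FPKM in at least 1 heart and were tested. The other 2, Spp1 (osteopontin) and Cilp (cartilage intermediate layer protein), stayed under 1 FPKM in every heart. In the fit with limma, 16 of 40 were higher in P7 (40.0%), against 7.74% of the 17960 annotated loci tested. A call needed both an adjusted p under 0.05 and mean FPKM that differed by 1.5 times or more. None was lower with limma, where 0.401% of annotated loci were, and 1 gene (Hapln1) was lower at an unadjusted p under 0.05. Every P7 heart exceeded every P1 heart for 19 genes (47.5%), against 17.3% of annotated loci. The reverse held for 1 gene (Hapln1), against 2.69% of annotated loci. Hapln1 reached 1 FPKM only in P1 hearts, the stage where it was higher, so it was tested only through that stage.

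The median log2 fold change of the 40 genes was 0.67, and that of all annotated loci tested was 0.19. Scaling the hearts by median ratios moved both medians down, to 0.43 for the matrix genes and -0.0145 for all annotated loci. It left 16 matrix genes higher and made 1 (Thbs1) lower, while over all annotated loci the calls changed from 1390 higher and 72 lower to 1331 higher and 691 lower. The number of matrix genes called higher depended on single hearts. It was 7 without P1 replicate 2, 10 without P1 replicate 3, 8 without P7 replicate 1, 8 without P7 replicate 3 and 24 without P1 replicate 4. Over all annotated loci the number higher moved further, from 1390 to 156, 395, 279, 256 and 2720 in the same order. The 16 genes had a positive fold change in each of the 19 fits, except that Vtn was not tested in the fit that required 1 FPKM in every heart, and 6 of them were called in every fit: Mfap4, Tnxb, Eln, Loxl1, Fbln1 and Prelp.

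**Figure D1:**
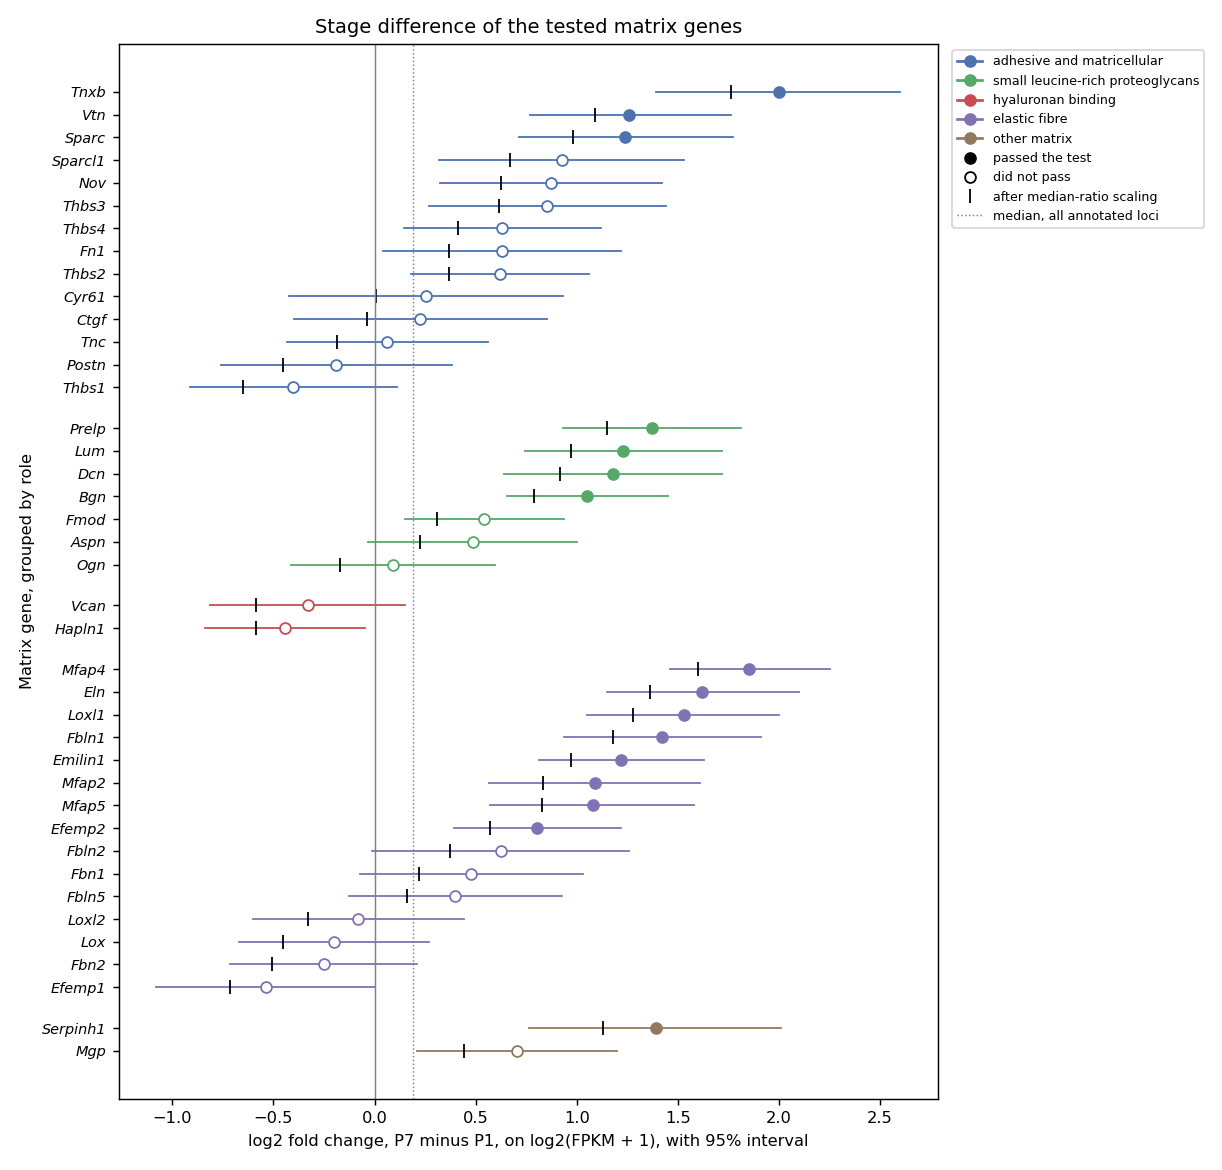
Log2 fold change (P7 minus P1, on log2(FPKM + 1)) of the 40 tested matrix genes, grouped by role, with 95% intervals from limma. Filled circles are the 16 genes that passed the test, all at 0.805 or more, open circles are the other 24, short black bars are the values after median-ratio scaling, and the dotted line is the median of all annotated loci (0.19). Of the 40 circles 32 lie above 0, and 29 of the black bars do. Over all annotated loci tested, 67.6% had a positive fold change, and 48.7% after median-ratio scaling.

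Some fibroblast and endothelial markers were also higher in P7. Of 8 fibroblast markers tested, 4 were higher (Tcf21, Thy1, Col1a1 and Col3a1), none was lower, and Pdgfra, Ddr2, Col1a2 and Pdgfrl did not pass (adjusted p = 0.337, 0.58, 0.0689 and 0.0592). The Col1a1 call was lost after GC correction (adjusted p = 0.195) and with the replicate number as a block (0.0523). The 8 together held 484.6 to 966.9 FPKM in P1 but 1296 to 1547 FPKM in P7, most of it from the collagen genes Col1a1, Col1a2 and Col3a1. Of 7 endothelial markers 4 were higher (2 after GC correction), with sums of 136.5 to 210.2 in P1 and 273.9 to 413.7 in P7. The largest part of these sums was Egfl7, which averaged 57 FPKM in P1 and 157 FPKM in P7. Its locus also carries the names Fam69b, Gm20532 and Mir126, so the value may hold fragments of several genes. Pecam1 and Kdr did not pass with limma (adjusted p = 0.345 and 0.236). The endothelial marker Emcn went the other way, with every P7 heart below every P1 heart (log2 fold change -0.42, 95% interval -0.83 to -0.0243, adjusted p = 0.244), and was lower after median-ratio scaling (adjusted p = 0.00945). The most abundant fibroblast markers, the collagen genes Col3a1 and Col1a1, averaged 236 ± 119 and 201 ± 25 FPKM in P1 and 645 ± 77.7 and 385 ± 16.5 FPKM in P7 (SD over 4 hearts each). The part of cell numbers in the rise of the matrix genes was not tested.

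To show sequence beside these values, the 250 bases before the transcription start were read for 6 of the genes, from RefSeq on GRCm38.p6. RefSeq entries matched 27 of the 42 genes, and of several starts the one nearest to the 5′ end of the locus was used. The 6 stand for the patterns described here: Sparc, the most abundant gene of the list in P7, Bgn and Serpinh1, a proteoglycan and a collagen chaperone that rose, the related genes Fbln1 and Efemp1, whose values moved apart, and Cyr61, a gene that did not pass the test. Their positions were chr11:55420081-55420330 (minus strand) for Sparc, chrX:73483351-73483600 (plus strand) for Bgn, chr7:99353240-99353489 (minus strand) for Serpinh1, chr15:85205699-85205948 (plus strand) for Fbln1, chr11:28852955-28853204 (plus strand) for Efemp1 and chr3:145649986-145650235 (minus strand) for Cyr61. Each is written 5′ to 3′ on the strand of the gene and ends at the base before the start. Capitals mark every match, on either strand, to the letters TATAAA that place the start in some promoters, to GGGCGG as bound by Sp factors, or to GGAATG as bound by TEAD factors, which carry Hippo pathway signals. The letters CCAAT were searched too.
Sparc: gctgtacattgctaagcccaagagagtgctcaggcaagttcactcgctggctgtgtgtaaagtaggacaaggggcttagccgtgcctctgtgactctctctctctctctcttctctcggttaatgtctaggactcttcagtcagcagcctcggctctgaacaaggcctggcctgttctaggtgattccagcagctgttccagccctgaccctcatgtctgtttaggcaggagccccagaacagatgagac
Bgn: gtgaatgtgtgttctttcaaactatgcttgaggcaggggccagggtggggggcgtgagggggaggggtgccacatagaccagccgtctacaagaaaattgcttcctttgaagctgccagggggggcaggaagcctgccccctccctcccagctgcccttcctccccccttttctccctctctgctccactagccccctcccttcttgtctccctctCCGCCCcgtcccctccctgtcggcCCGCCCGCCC
Serpinh1: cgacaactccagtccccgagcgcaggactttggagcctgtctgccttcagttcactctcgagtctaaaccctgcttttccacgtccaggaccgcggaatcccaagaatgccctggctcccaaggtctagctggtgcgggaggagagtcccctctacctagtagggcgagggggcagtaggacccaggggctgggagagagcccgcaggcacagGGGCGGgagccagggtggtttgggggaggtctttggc
Fbln1: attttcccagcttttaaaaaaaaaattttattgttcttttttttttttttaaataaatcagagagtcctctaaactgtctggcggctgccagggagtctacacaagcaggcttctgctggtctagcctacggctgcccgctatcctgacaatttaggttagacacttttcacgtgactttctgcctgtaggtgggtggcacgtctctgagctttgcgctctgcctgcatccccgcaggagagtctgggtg
Efemp1: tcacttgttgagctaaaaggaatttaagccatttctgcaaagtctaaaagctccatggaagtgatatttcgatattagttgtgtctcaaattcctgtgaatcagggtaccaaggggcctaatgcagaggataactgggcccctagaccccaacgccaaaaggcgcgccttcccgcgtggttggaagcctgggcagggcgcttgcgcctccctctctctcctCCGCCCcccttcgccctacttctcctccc
Cyr61: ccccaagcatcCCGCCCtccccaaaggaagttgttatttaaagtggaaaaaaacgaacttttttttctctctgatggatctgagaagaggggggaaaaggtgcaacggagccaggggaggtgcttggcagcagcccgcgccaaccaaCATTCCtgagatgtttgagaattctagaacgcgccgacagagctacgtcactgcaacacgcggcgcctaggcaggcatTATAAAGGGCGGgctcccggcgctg

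The Sparc and Fbln1 windows held none of the 4 motifs. Bgn held 3 GC boxes, here meaning GGGCGG, which began 34, 10 and 6 bases before the start, the last pair overlapping. Serpinh1 held 1 GC box at 37 bases and Efemp1 held 1 at 29 bases. Cyr61 held a TATA box at 25 bases followed directly by a GC box at 19, a further GC box at 239 bases and 1 TEAD core at 103 bases. Over the 27 matched genes a GC box lay in 12 windows, a TATA box in 8, a CCAAT box in 8 and a TEAD core in 5. Of the 10 matched genes that were higher in P7, 3 held a GC box, 1 a TATA box, 2 a CCAAT box and 2 a TEAD core. In all 32851 RefSeq windows of this length the shares were 32.7% for GGGCGG, 12.4% for TATAAA, 33.8% for CCAAT and 12.6% for GGAATG. These are matches of letters only.

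Elastic fibre genes were the largest group among those that rose, 8 of 15 tested. They summed to 270.9 to 452 FPKM in the P1 hearts and 682.8 to 840.1 FPKM in the P7 hearts, and their median log2 fold change was 0.81. Values are given for each heart in the order of replicates 1 to 4. Eln (chr5:134701464-134747373), which encodes elastin, read 126, 89.8, 109.5 and 157 FPKM in the P1 hearts and 421, 299, 375 and 379 FPKM in the P7 hearts. The lowest P7 heart was above the highest P1 heart, and mean FPKM rose 3.06-fold from 120.5 ± 28.5 FPKM (SD, n = 4) to 369 ± 50.7 FPKM (n = 4) (log2 fold change 1.62 ± 0.22 (SE), adjusted p = 0.0056).

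Of the proteins that dress the fibre, Mfap4 (chr11:61485431-61494406), which binds elastin and fibrillin microfibrils, read 30.8, 23.6, 24 and 30.2 FPKM in the P1 hearts and 102, 114, 96.3 and 90.2 FPKM in the P7 hearts. The P1 hearts lay within a narrow band and all P7 hearts were far above it, and the rise was 3.7-fold (log2 fold change 1.85 ± 0.18 (SE), adjusted p = 0.00209). Mfap4 had the lowest adjusted p of the list. Emilin1 (chr5:30913402-30921278), a glycoprotein at the border of elastin and microfibril, read 12.5, 9.38, 9.01 and 11.5 FPKM in P1 and 27.7, 23.9, 30.3 and 22 FPKM in P7. The stages did not overlap (log2 fold change 1.22 ± 0.19 (SE), adjusted p = 0.00815), and GC correction ended this call (adjusted p = 0.0721). The transcripts of the genes that rose had a median GC content of 54.4%, against 49.2% for the genes that were not called.

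The microfibril itself gave a mixed picture. Mfap5 (chr6:122505845-122529290), a microfibril-associated glycoprotein, read 10.4, 8.22, 9.05 and 14.5 FPKM in P1 and 26.9, 16.2, 29.5 and 21.1 FPKM in P7. All P7 hearts exceeded the P1 hearts (log2 fold change 1.08 ± 0.23 (SE), adjusted p = 0.0275). The related gene Mfap2 (chr4:141010418-141015984) read 21.7, 23.8, 18.2 and 15.5 FPKM in P1 and 34.9, 69.1, 36 and 38.6 FPKM in P7, with P7 replicate 2 well above the other P7 hearts (log2 fold change 1.09 ± 0.24 (SE), adjusted p = 0.0301). Fbn1, the main fibrillin of the adult, read 27.2, 24.5, 24.9 and 52.3 FPKM in P1 and 49.2, 32.9, 50.2 and 42 FPKM in P7. P1 replicate 4 was the highest of all hearts, so the stages overlapped (log2 fold change 0.48, 95% interval -0.0745 to 1.03, adjusted p = 0.335), and without it Fbn1 was called (adjusted p = 0.0398). Fbn2, a fibrillin used mostly before birth, read 23, 20.6, 23.2 and 33.8 FPKM in P1 and 23.4, 15.1, 21.3 and 23.6 FPKM in P7 and the stages overlapped (log2 fold change -0.25, 95% interval -0.71 to 0.21, adjusted p = 0.5). The Mfap5 call was lost without any 1 of 6 hearts (all but P1 replicate 4 and P7 replicate 2), with adjusted p from 0.0524 to 0.103. Mfap2 was called in 9 of the 19 fits. Among other settings, its call was lost without any 1 of the same 6 hearts (0.0531 to 0.0755), after median-ratio scaling (0.153) and after GC correction (0.168).

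Fibulins link elastin to microfibrils and to cells, and the 5 on the list did not move as a block. Fbln1 (chr15:85205949-85286535) read 9.34, 6.48, 5.56 and 11 FPKM in the P1 hearts and 26.9, 21.6, 24.8 and 18.4 FPKM in the P7 hearts. The stages were well apart, and the mean rose 2.83-fold (log2 fold change 1.42 ± 0.22 (SE), adjusted p = 0.00915). Efemp2 (chr19:5473973-5481853), the fibulin that brings lysyl oxidase to elastin, read 7.48, 6.2, 5.13 and 8.84 FPKM in P1 and 12.4, 12.2, 13.7 and 12.2 FPKM in P7. The P7 hearts were nearly equal and above every P1 heart (log2 fold change 0.81 ± 0.19 (SE), adjusted p = 0.0375). Fbln2 read 15.6, 11.9, 16.7 and 30.9 FPKM in P1 and 36.5, 17.5, 33.8 and 27.1 FPKM in P7, and Fbln5, which is needed for elastic fibres to form, read 7.83, 6.5, 9.29 and 15.2 FPKM in P1 and 14.1, 9.56, 12.8 and 14.2 FPKM in P7. Both overlapped between stages and did not pass the test (Fbln2: log2 fold change 0.62, 95% interval -0.0137 to 1.26, adjusted p = 0.28). The interval for Fbln5 also spanned 0 (log2 fold change 0.40, 95% interval -0.13 to 0.93, adjusted p = 0.387). Efemp1 read 2.47, 2.04, 2.84 and 5.03 FPKM in P1 and 1.56, 1.04, 1.95 and 2.56 FPKM in P7, with the highest P7 heart above 2 of the P1 hearts, and did not pass either (log2 fold change -0.54, 95% interval -1.08 to 0.00157, adjusted p = 0.271). Efemp2 was the weakest call of the list, called in 7 of the 19 fits. Among other settings, it was lost without any single heart but P1 replicate 4 (adjusted p from 0.0618 to 0.132), with the replicate number as a block (0.0801) and after GC correction (0.137).

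Lysyl oxidases crosslink elastin and collagen, and 1 of the 3 on the list rose. Loxl1 (chr9:58287723-58313212), the member tied to elastin, read 10.3, 6.53, 6.31 and 12.3 FPKM in the P1 hearts and 26.4, 25.8, 29.3 and 24.6 FPKM in the P7 hearts. The P7 hearts lay close together and well above every P1 heart, and the mean rose 2.99-fold (log2 fold change 1.53 ± 0.22 (SE), adjusted p = 0.00679). Lox stayed between 18.4 and 31 FPKM in P1 and between 14.8 and 23.1 in P7 (log2 fold change -0.20, 95% interval -0.67 to 0.27, adjusted p = 0.586). Loxl2 stayed between 12.3 and 22.9 FPKM in P1 and between 9.91 and 18.6 in P7 (log2 fold change -0.0805, 95% interval -0.60 to 0.44, adjusted p = 0.852).

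**Figure D2:**
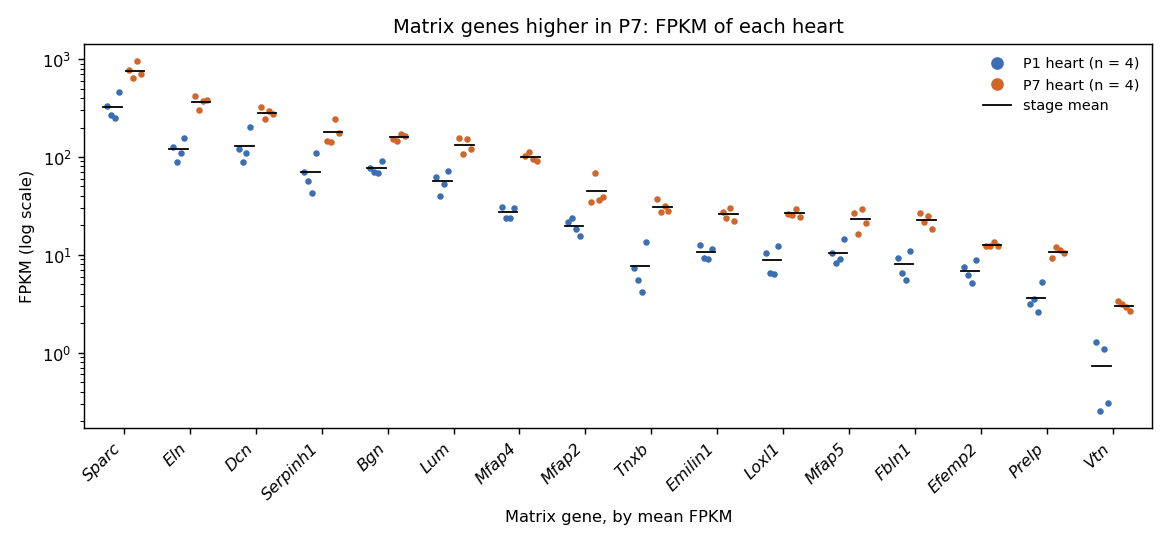
FPKM (log axis) of the 16 matrix genes that were higher in P7, ordered by mean level, with 1 point per heart (P1 left, P7 right, n = 4 each) and a line at the stage mean. For each gene every P7 point lies above every P1 point, from Sparc at 248 to 947 FPKM down to Vtn at 0.254 to 3.34 FPKM.

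Small leucine-rich proteoglycans coat collagen fibrils and limit their width. Of the 7 on the list 4 were higher in P7 and none was lower with limma, at an unadjusted p under 0.05 as well. They summed to 328.7 to 573.4 FPKM in the P1 hearts and 638 to 868.3 FPKM in the P7 hearts. Dcn (chr10:97479500-97518162), decorin, read 121, 89.6, 109 and 200.4 FPKM in the P1 hearts and 321, 242, 296 and 276 FPKM in the P7 hearts. P1 replicate 4 came closest to the P7 hearts without reaching them, and the mean rose 2.18-fold (log2 fold change 1.18 ± 0.25 (SE), adjusted p = 0.0255). Bgn (chrX:73483602-73495933), biglycan, read 76.8, 70.3, 68.6 and 91.4 FPKM in P1 and 154, 147, 173 and 165 FPKM in P7. Its hearts varied little within a stage and the mean rose 2.08-fold from 76.8 ± 10.3 FPKM (SD, n = 4) to 159.5 ± 11.5 FPKM (n = 4) (log2 fold change 1.05 ± 0.18 (SE), adjusted p = 0.0138).

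Lum (chr10:97565467-97572705), lumican, read 63.1, 40.3, 52.7 and 71.9 FPKM in P1 and 157, 106, 154 and 120.1 FPKM in P7. The P7 hearts were all above the P1 hearts (log2 fold change 1.23 ± 0.23 (SE), adjusted p = 0.0164). Prelp (chr1:133897199-133921414), a proteoglycan that anchors basement membranes to the tissue, read 3.17, 3.51, 2.62 and 5.28 FPKM in P1 and 9.37, 12.2, 11.2 and 10.4 FPKM in P7. Its level was low, and its mean rose 2.96-fold (log2 fold change 1.37 ± 0.20 (SE), adjusted p = 0.00741). Dcn lost its call without any 1 of 6 hearts (all but P1 replicate 4 and P7 replicate 2), with adjusted p from 0.0557 to 0.0996. Lum lost it when P1 replicate 2 or either of replicates 1 and 3 of P7 was left out (0.0507 to 0.069), and Bgn without P1 replicate 2 (0.0666).

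The other 3 proteoglycans did not pass the test. Aspn, asporin, was among the 10 most abundant genes of the list and read 67.6, 61.4, 67.2 and 93.9 FPKM in P1 and 132, 67.6, 120.4 and 95.5 FPKM in P7. The stages touched, with P7 replicate 2 inside the P1 range (log2 fold change 0.49, 95% interval -0.0315 to 1.00, adjusted p = 0.299). Ogn, osteoglycin, averaged 71.8 ± 20.9 FPKM (SD, n = 4) in P1 and 75.6 ± 14.8 FPKM (n = 4) in P7 (log2 fold change 0.0898, 95% interval -0.41 to 0.59, adjusted p = 0.827), and its fold change took a negative sign after median-ratio scaling (-0.17). Fmod, fibromodulin, averaged 6.15 ± 1.23 FPKM (SD, n = 4) in P1 and 9.3 ± 0.356 FPKM (n = 4) in P7. For Fmod the lowest P7 heart exceeded the highest P1 heart, but it passed only without P1 replicate 4 or with sample quality weights (adjusted p = 0.0397 and 0.0204) and not in the fit of all hearts (log2 fold change 0.54, 95% interval 0.15 to 0.94, adjusted p = 0.129). Ogn and Aspn, with Omd and Ecm2, were given the same span in the files (chr13:49421270-49652746), and how fragments were shared among them is not given in the sources used here.

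Neither hyaluronan-binding gene passed the test in either direction. Vcan, versican, ranged from 36.3 to 60.1 FPKM in P1 and from 27.4 to 41.9 FPKM in P7 (log2 fold change -0.33, 95% interval -0.81 to 0.15, adjusted p = 0.421). Hapln1, the link protein that locks versican to hyaluronan, ranged from 1.34 to 1.47 FPKM in P1 and from 0.435 to 0.94 FPKM in P7. These ranges did not overlap, at levels near the 1 FPKM of the filter (log2 fold change -0.45, 95% interval -0.84 to -0.0493, adjusted p = 0.218). Hapln1 passed the filter only through its P1 hearts, the stage where it was higher, so the lack of overlap does not serve as support.

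Among adhesive and matricellular genes 3 of 14 tested were higher in P7 and none was lower with limma, at an unadjusted p under 0.05 as well. Sparc (chr11:55394498-55420146), a collagen-binding glycoprotein, read 335, 268, 248 and 462 FPKM in the P1 hearts and 769.5, 636, 947 and 699 FPKM in the P7 hearts. The stages were apart, and the mean rose 2.33-fold from 328 ± 96.4 FPKM (SD, n = 4) to 763 ± 134 FPKM (n = 4) (log2 fold change 1.24 ± 0.24 (SE), adjusted p = 0.0205). Its relative Sparcl1 read 34.9, 31.1, 25.9 and 58.9 FPKM in P1 and 85.5, 48.7, 93.3 and 58.7 FPKM in P7, and P1 replicate 4 lay within the P7 range. Sparcl1 did not pass (log2 fold change 0.93, 95% interval 0.32 to 1.53, adjusted p = 0.093), though it did after median-ratio scaling (adjusted p = 0.0415) and without P1 replicate 4 (0.0177). The Sparc call was lost when 1 of replicates 2 and 3 of P1 or 1 and 3 of P7 was left out (0.0565 to 0.0851).

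The tenascins on the list differed from each other. Tnxb (chr17:34660429-34804561), tenascin X, which binds collagen in loose connective tissue, read 7.41, 5.51, 4.14 and 13.5 FPKM in the P1 hearts and 37.1, 27.6, 31.9 and 28.1 FPKM in the P7 hearts. The lowest P7 heart was above the highest P1 heart, and the mean rose 4.08-fold (log2 fold change 2.00 ± 0.28 (SE), adjusted p = 0.00615). The locus also carries the name Tnxa, so the value may hold fragments of both. Tnc, tenascin C, read 12.1, 12.9, 12.8 and 21.2 FPKM in P1 and 14.8, 10.8, 19 and 16.9 FPKM in P7. The stages overlapped widely (log2 fold change 0.0629, 95% interval -0.43 to 0.56, adjusted p = 0.88), and its fold change was -0.18 after median-ratio scaling.

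Vtn (chr11:78499091-78502324), vitronectin, a plasma protein made mainly by the liver, read 1.29, 0.254, 1.1 and 0.309 FPKM in the P1 hearts and 3.34, 3.12, 2.96 and 2.69 FPKM in the P7 hearts. All P7 hearts were above the P1 hearts, from a low base (log2 fold change 1.26 ± 0.23 (SE), adjusted p = 0.0156). In P1 the hearts with the higher Vtn, replicates 1 and 3, were also those with the higher albumin RNA: Alb read 40.3, 0.455, 23.7 and 0.739 FPKM in P1 and 1.05, 0.289, 1.98 and 5.63 FPKM in P7. Of 5 liver markers tested none was higher or lower with limma, at an unadjusted p under 0.05 as well, and they summed to 3.65 to 66.6 FPKM in the P1 hearts and 4.32 to 16.04 FPKM in the P7 hearts. The liver sum of every P7 heart lay within the range of the P1 hearts. In P7 the heart with the highest Alb, replicate 4, had the lowest Vtn. The source of the Vtn RNA was not tested. The Vtn call was lost after GC correction (adjusted p = 0.0651) and when P1 replicate 2 or either of replicates 1 and 3 of P7 was left out (0.0503 to 0.0619).

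Periostin and fibronectin, abundant in both stages, did not pass. Postn, a matricellular protein of valves and active fibroblasts, read 310.5, 254, 275 and 537 FPKM in the P1 hearts and 338, 225, 345 and 262 FPKM in the P7 hearts. The highest heart of all was P1 replicate 4 and the other 3 P1 hearts lay within the P7 range (log2 fold change -0.19, 95% interval -0.76 to 0.38, adjusted p = 0.671). Fn1, fibronectin, the adhesive protein that integrins bind, read 75.5, 63.6, 55.3 and 133 FPKM in P1 and 131, 89.5, 148 and 119.8 FPKM in P7. For Fn1, P1 replicate 4 lay among the P7 hearts (log2 fold change 0.63, 95% interval 0.0399 to 1.22, adjusted p = 0.241), and without it Fn1 was called (adjusted p = 0.0292).

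Thrombospondins bind calcium, collagen and cell receptors, and none of the 4 passed the test. Thbs1, an activator of latent TGF-beta, read 15.1, 14.7, 16.8 and 23 FPKM in P1 and 11, 8.89, 18.4 and 14.3 FPKM in P7. The stages overlapped (log2 fold change -0.40, 95% interval -0.91 to 0.11, adjusted p = 0.374), and after median-ratio scaling Thbs1 was lower in P7 (log2 fold change -0.65, adjusted p = 0.0423). Thbs2 read 17, 12.4, 15.9 and 20 FPKM in P1 and 32, 20.9, 25.6 and 23.8 FPKM in P7, with no overlap between stages (log2 fold change 0.62, 95% interval 0.18 to 1.06, adjusted p = 0.12). Thbs3 read 9.2, 5.89, 5.38 and 12.7 FPKM in P1 and 16.8, 12.1, 20.9 and 11.7 FPKM in P7. Here P1 replicate 4 exceeded 2 of the P7 hearts (log2 fold change 0.85, 95% interval 0.27 to 1.44, adjusted p = 0.109). Thbs4 read 4.28, 4.25, 2.79 and 6.22 FPKM in P1 and 6.02, 6.24, 9.4 and 7.28 FPKM in P7, with P1 replicate 4 just above P7 replicate 1 (log2 fold change 0.63, 95% interval 0.15 to 1.12, adjusted p = 0.155). Without P1 replicate 4 Thbs2, Thbs3 and Thbs4 were called, with adjusted p of 0.047, 0.0247 and 0.041.

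Ctgf, Cyr61 and Nov encode the CCN proteins, matricellular signals that bind integrins and growth factors. Ctgf read 52.7, 66, 50.3 and 108 FPKM in P1 and 88.8, 46.7, 96 and 89.4 FPKM in P7, with P7 replicate 2 as the lowest of all hearts (log2 fold change 0.23, 95% interval -0.40 to 0.85, adjusted p = 0.646). Cyr61 read 11.7, 10.8, 10.4 and 15.5 FPKM in P1 and 10.6, 7.73, 25.6 and 20.2 FPKM in P7, and its P7 hearts scattered on both sides of the P1 hearts (log2 fold change 0.25, 95% interval -0.42 to 0.93, adjusted p = 0.633). Nov read 10.4, 8.98, 8.9 and 14.4 FPKM in P1 and 20.3, 11.9, 25.8 and 25.4 FPKM in P7. Of the P7 hearts, replicate 2 lay within the P1 range (log2 fold change 0.87, 95% interval 0.33 to 1.42, adjusted p = 0.0804), and Nov was called without it (adjusted p = 0.0309) and without P1 replicate 4 (0.0329). Spp1, the last of the class, lay between 0.109 and 0.813 FPKM over all hearts and was not tested.

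Of the 3 genes outside these classes Serpinh1 rose. It encodes the chaperone that folds procollagen in the endoplasmic reticulum, and its locus (chr7:99345375-99353328) read 70.6, 56.3, 42.7 and 111 FPKM in the P1 hearts and 147, 142, 247 and 178 FPKM in the P7 hearts. The highest P1 heart stayed below the lowest P7 heart, and the mean rose 2.55-fold (log2 fold change 1.39 ± 0.29 (SE), adjusted p = 0.0233). The call was lost after GC correction (adjusted p = 0.0889) and when 1 of replicates 2 and 3 of P1 or 1, 3 and 4 of P7 was left out (0.0504 to 0.0868). Mgp, an inhibitor of calcification, read 169.7, 176, 198 and 191 FPKM in the P1 hearts and 448, 246, 302 and 241 FPKM in the P7 hearts. Its P1 hearts were close together and all lay below the P7 hearts, but the P7 spread was wide and the gene did not pass (log2 fold change 0.70, 95% interval 0.21 to 1.20, adjusted p = 0.116). Cilp ranged from 0.066 to 0.291 FPKM in P1 and from 0.426 to 0.902 FPKM in P7, under the level tested.

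The make-up of the matrix RNA also differed between stages. The 42 genes summed to 1914, 1632, 1685 and 2814 FPKM in the P1 hearts and 3897, 2893, 4048 and 3343 FPKM in the P7 hearts. The lowest P7 heart was only slightly above P1 replicate 4. As a share of the FPKM of all annotated loci this was 0.36% ± 0.098 in P1 and 0.555% ± 0.04 in P7 (SD over 4 hearts each), and here P7 replicate 2 (0.497%) and P1 replicate 4 (0.499%) overlapped. By mean FPKM, Postn was the most abundant gene of the list in P1, with 17.1% of the summed mean, and the fourth in P7, with 8.25%. Sparc went from 16.3% to 21.5% and became the first, and Eln went from 5.99% and the fifth place to 10.4% and the second. Mgp was the third in both stages (9.12% and 8.72%). Hearts of 1 stage varied more in P1: the median coefficient of variation over the 40 tested genes was 29.2% in P1 and 19.8% in P7, and 15.6% and 14.3% after median-ratio scaling.

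**Figure D3:**
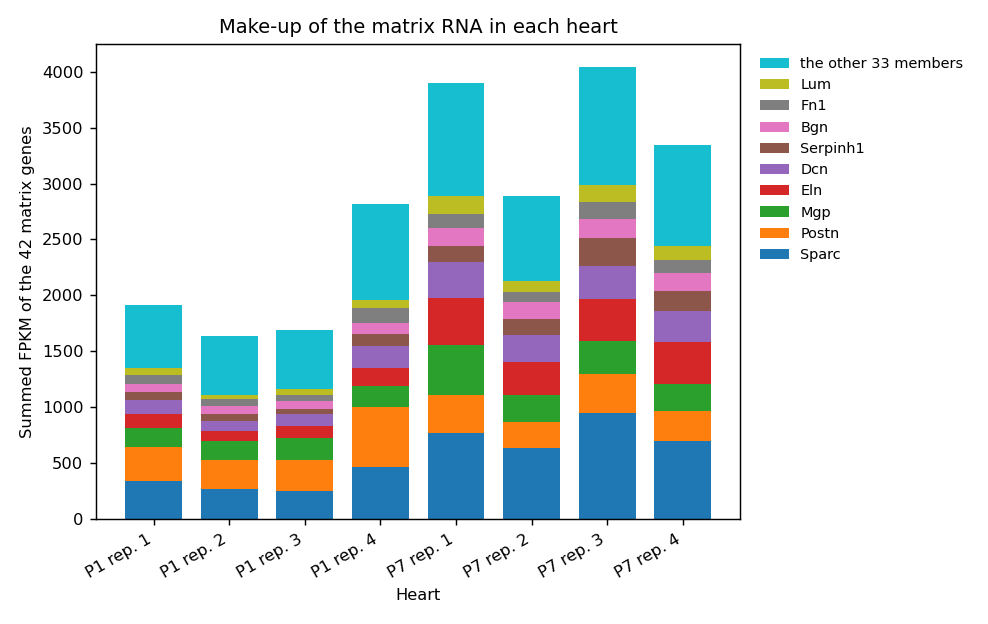
Summed FPKM of the 42 matrix genes in each heart (bars from 0, n = 4 hearts per stage), split into the 9 genes shown by name and the other 33. The Eln segment is 89.8 to 157 FPKM tall in P1 and 299 to 421 FPKM in P7, the Postn segment 254 to 537 and 225 to 345.4 FPKM, and P1 replicate 4 stands above the other P1 bars.

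Ratios of related genes within a heart do not depend on a scale factor for the whole heart. A GC bias does not cancel where 2 genes differ in GC content, as Loxl1 (61%) and Lox (43.9%) or Tnxb (60.7%) and Tnc (52.5%) do. After GC correction the log2 fold changes were 1.06 for Loxl1, 0.0209 for Lox, 1.54 for Tnxb and -0.0593 for Tnc. The ratios themselves were not recomputed after GC correction. They were compared for 26 pairs, of which 4 (the lysyl oxidases and Ogn with Dcn) were chosen after the values were seen. Pairs that share a gene are not independent. In 17 pairs the stages did not overlap, each with p = 0.0286 in a two-sided exact permutation test, the smallest p that 4 against 4 hearts allow (0.0437 after Benjamini-Hochberg adjustment over the 26). The 17 include Loxl1/Lox, Loxl2/Loxl1 and Ogn/Dcn, which were chosen after the values were seen, so their p-values do not serve as a test. The share of other gene pairs without overlap was not computed. The ratio of Tnxb to Tnc was 0.611, 0.427, 0.325 and 0.635 in P1 and 2.51, 2.55, 1.68 and 1.66 in P7. Tenascin C RNA was thus the more abundant of the pair in every P1 heart and tenascin X in every P7 heart. Loxl1 over Lox was 0.49, 0.356, 0.248 and 0.398 in P1 and 1.14, 1.75, 1.34 and 1.08 in P7, again with the order turned between stages. Fbn2 over Fbn1 averaged 0.815 ± 0.12 in P1 and 0.48 ± 0.059 in P7 (mean ± SD of 4 hearts each, as for the ratios that follow).

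In the fibulin family Efemp1 lost ground to each of its relatives. Its ratio to Fbln1 was 0.387 ± 0.12 in P1 and 0.0811 ± 0.041 in P7, to Fbln2 0.166 ± 0.006 in P1 and 0.0637 ± 0.022 in P7 and to Fbln5 0.317 ± 0.011 in P1 and 0.138 ± 0.035 in P7, and Efemp2 over Efemp1 was 2.41 ± 0.72 in P1 and 7.84 ± 2.9 in P7. Fbln1 gained on the other 4, and its ratios to Fbln2, Fbln5 and Efemp2 also separated the stages without overlap. By contrast Fbln5 over Fbln2 was 0.524 ± 0.032 in P1 and 0.459 ± 0.088 in P7 (exact permutation p = 0.314), and Efemp2 over Fbln2 and over Fbln5 overlapped as well (exact p = 0.486 and 0.171). GC content differs here too: 44.9% for Efemp1, 46.9% for Fbln5, 54.1% for Efemp2, 54.7% for Fbln1 and 57% for Fbln2. After GC correction the log2 fold changes were -0.34 for Efemp1, 0.54 for Fbln5, 0.58 for Efemp2, 1.17 for Fbln1 and 0.26 for Fbln2.

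Thbs1 lost ground to the other thrombospondins. Thbs2 over Thbs1 was 1.13, 0.845, 0.949 and 0.867 in P1 and 2.91, 2.35, 1.39 and 1.66 in P7, and Thbs3 and Thbs4 over Thbs1 averaged 0.471 and 0.253 in P1 and 1.21 and 0.567 in P7. The ratios among Thbs2, Thbs3 and Thbs4 overlapped between stages (exact permutation p from 0.343 to 0.686). Of the CCN genes Nov gained on Ctgf (0.161 ± 0.031 in P1 and 0.259 ± 0.024 in P7) and on Cyr61 (0.873 ± 0.04 in P1 and 1.43 ± 0.39 in P7), while Cyr61 over Ctgf overlapped (exact permutation p = 0.886). Ogn over Dcn was 0.566 ± 0.073 in P1 and 0.265 ± 0.028 in P7. Sparcl1 over Sparc, 0.113 ± 0.011 in P1 and 0.0925 ± 0.015 in P7, overlapped (exact permutation p = 0.114), as did Loxl2 over Lox (exact permutation p = 0.571).

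**Figure D4:**
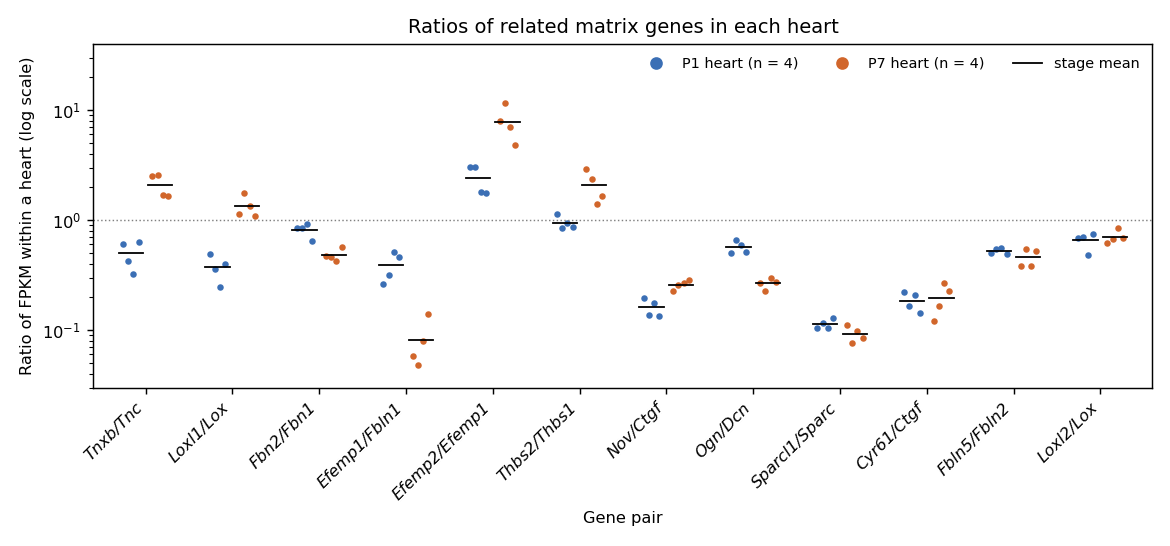
Ratio of FPKM within each heart (log axis) for 12 of the 26 pairs of related matrix genes, with 1 point per heart (P1 left, P7 right, n = 4 each) and a line at the stage mean. The first 8 pairs, from Tnxb/Tnc (0.5 to 2.1) to Ogn/Dcn (0.566 to 0.265), separate the stages without overlap, and the last 4 overlap. Loxl1/Lox, Ogn/Dcn and Loxl2/Lox were chosen after the values were seen.

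Beyond the 42 genes, 55 other non-collagen matrix genes were listed, of which 38 were tested. Of these 10 were higher in P7 (26.3%), against 7.74% of annotated loci. None was lower with limma, where 0.401% of annotated loci were, and 2 (Has2 and Wisp1) were lower at an unadjusted p under 0.05. After median-ratio scaling 9 were higher and 2 lower, the same Has2 and Wisp1. Without single hearts the number higher was 6 (P1 replicate 1), 4 (P1 replicate 2, P1 replicate 3 or P7 replicate 3) and 5 (P7 replicate 1), and 15 without P1 replicate 4. Over all annotated loci the number higher went from 1390 to 791, 156, 395, 256, 279 and 2720 in the same order. The median log2 fold change of the 38 genes was 0.52, against 0.19 for all annotated loci tested. Most abundant was Igfbp7, a secreted protein that binds insulin-like growth factors, which read 184, 170.0, 163 and 175 FPKM in P1 and 547, 523, 634 and 579 FPKM in P7. The stages were far apart (log2 fold change 1.71 ± 0.18 (SE), adjusted p = 0.00244).

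Of the 4 latent TGF-beta binding proteins 2 were higher. Ltbp4, a latent TGF-beta binding protein that also takes part in elastic fibre assembly, rose 3.18-fold from 11.1 ± 5.46 FPKM (SD, n = 4) to 35.4 ± 1.13 FPKM (n = 4) (log2 fold change 1.69 ± 0.28 (SE), adjusted p = 0.0105), and its relative Ltbp3 rose 2.15-fold (log2 fold change 1.10 ± 0.24 (SE), adjusted p = 0.0274). Ltbp1 (log2 fold change 0.21, 95% interval -0.22 to 0.65, adjusted p = 0.538) and Ltbp2 (log2 fold change 0.46, 95% interval 0.0164 to 0.90, adjusted p = 0.254) did not pass. Podn, the small leucine-rich proteoglycan podocan, rose from 1.88 ± 0.99 FPKM (SD, n = 4) to 8.82 ± 1.45 FPKM (n = 4) (log2 fold change 1.83 ± 0.26 (SE), adjusted p = 0.00629). Dpt, dermatopontin, a partner of decorin, read 129, 104, 119 and 188 FPKM in P1 and 335, 213, 287 and 273 FPKM in P7 and rose (log2 fold change 1.05 ± 0.23 (SE), adjusted p = 0.0299). Smoc2, a relative of Sparc, rose 3.14-fold (log2 fold change 1.40 ± 0.20 (SE), adjusted p = 0.00629), Vwa1 rose 3.19-fold and Comp, a relative of the thrombospondins, 4.57-fold, from 0.358 to 1.64 FPKM. Comp read 0.22 to 0.463 FPKM in the P1 hearts and 1.43 to 2.02 FPKM in the P7 hearts. It reached the 1 FPKM needed for testing only in P7, the stage where it was high, so its call does not serve as support. Loxl3 and Tsku were called as well. GC correction ended the calls of Ltbp3, Ltbp4, Comp, Vwa1, Loxl3 and Tsku (adjusted p from 0.0649 for Ltbp4 to 0.191 for Comp). By list, 3 of 11 elastic fibre and latent TGF-beta binding genes, 2 of 13 proteoglycan and hyaluronan genes and 5 of 14 matricellular and adhesive genes were higher.

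Markers of the remaining cell types were counted too. None of 6 cardiomyocyte markers passed in either direction (2 were higher at an unadjusted p under 0.05). Smooth muscle gave 1 of 5 lower (Cnn1) and none higher, with sums of 256.5 to 536.4 FPKM in P1 and 138.9 to 257.9 in P7, mostly Acta2 (281 ± 116 and 148 ± 46.7) and Tagln (34.6 ± 11.7 and 33.7 ± 5.53). Of 5 tested markers of cartilage, tendon and bone, 2 were higher (Scx and Col11a2). The other 3 had negative fold changes, and Runx2 was lower after median-ratio scaling (adjusted p = 0.0392). GC correction ended the calls of Scx (adjusted p = 0.0931) and Col11a2 (0.472), and median-ratio scaling ended that of Col11a2 (0.0677). Of 5 macrophage markers 1 was higher (Lyz2). None of the 5 epicardial and 5 red cell markers passed (1 and 4 were higher at an unadjusted p under 0.05), and the red cell sums were 315.1 to 960.5 FPKM in P1 and 920.4 to 1222 in P7. Lung and thymus markers stayed under 1 FPKM in every heart, with Ptcra listed at 0, except Sftpc at 2.33 FPKM in P1 replicate 1, which also had the highest Alb, and Rag1, whose locus is shared with another gene. Which cells the matrix RNA came from was not tested.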

How the data were processed

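RNA-seq values of 4 P1 and 4 P7 mouse hearts were analysed. The authors' provider aligned paired reads to GRCm38 with Ensembl annotation and deposited FPKM per locus for 80155 loci; the aligner, its version and the strand setting of the counting are not given in the sources used here. Symbols joined by commas were split and matched without regard to case, and of several loci with a symbol the one with the highest mean FPKM was used. Positions count from 1.

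Loci that reached 1 FPKM in any heart (43172) were compared on log2(FPKM + 1) with limma 3.58.1 in R 4.3.3 (lmFit, then eBayes with a trend on the mean, no covariates). P-values were adjusted over all of them by the Benjamini-Hochberg method. The pseudocount of 1 shrinks the fold changes of low genes. A call needed an adjusted p under 0.05 and stage means that differed by 1.5 times or more. Ratios within a heart were compared by a two-sided exact permutation test over the 70 splits of the hearts. Tables were made in Python 3.11.15 with scipy 1.17.1, numpy 2.4.6 and pandas 2.3.3.

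The alternatives were median-ratio scaling, quantile normalization, GC correction, 1 FPKM required in all hearts or no filter, a pseudocount of 0.1, the replicate number as a block, eBayes without trend, limma's sample quality weights, the adjusted p alone and each heart left out. GC correction subtracted from each heart a lowess trend (span 0.3) on transcript GC content from GENCODE M21, which was known for 91.7% of the tested annotated loci and 41 of the 42 genes. The scripts were tested on simulated data.

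The genes, the other lists and the tests were chosen with earlier results of these data known. Values in each heart are given for the genes called, the 10 with the highest mean FPKM and the groups of related genes; the rest are given by range. Of the other matrix genes, at most 8 called genes are named with values, those with the largest fold change. Count tests were not run, since the files hold no counts.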

Additional observations from a re-analysis of the deposited data

Results flagged for a closer look

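In 9 of 88 groups of 4 hearts (each of the 42 genes, their sum and their share of annotated FPKM, in each stage), 1 heart lay far from the others, with the ratio of gap to range over Dixon's 95% value; chance gives about 1 in 20 groups, here 4.4. P1 replicate 4 was high for Tnc (21.2 FPKM, others 12.1 to 12.9), Ogn (103, others 58.9 to 64.7), Vcan (60.1, others 36.3 to 39) and Fbn1 (52.3, others 24.5 to 27.2). P7 replicate 2 was low for Ctgf (46.7 FPKM, others 88.8 to 96) and Lox (14.8, others 21.8 to 23.1) and high for Mfap2 (69.1, others 34.9 to 38.6). P7 replicate 3 was high for Efemp2 (13.7 FPKM, others 12.2 to 12.4) and P7 replicate 1 for Cilp (0.902, others 0.426 to 0.492). The fold changes of these genes across the settings are covered with the processing.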

How the results depend on the processing

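With each heart left out in turn, the number of the 42 matrix genes higher in P7 ran from 7 (without P1 replicate 2) to 24 (without P1 replicate 4), against 16, and that of the other matrix genes from 4 to 15, against 10. Over all annotated loci the number higher ran from 156 to 2720 in the same fits, against 1390. In the other settings the number of the 42 was 11 (GC correction or no filter) to 23 (sample quality weights). Over all annotated loci the number higher was then 351 after GC correction, 591 of 31885 with no filter and 2773 with sample quality weights. None of the 42 was lower except Thbs1, both after median-ratio scaling and after quantile normalization (log2 fold change -0.66, adjusted p = 0.0474 with limma in the latter). For the other matrix genes 5 were higher after GC correction, 6 with no filter and 20 with sample quality weights, and 2 were lower after median-ratio scaling and 1 after quantile normalization. With no filter Dcn, Mfap2, Mfap5, Efemp2 and Serpinh1 lost their calls. Of the 24 genes not called, 11 were called in at least 1 of the other fits, 12 were positive and 5 negative in every fit that tested them, and 7 changed sign. The causes were not tested, beyond the fewer hearts or larger number of loci that some settings use.

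The replicate numbers did not pair the hearts: same-numbered hearts correlated by -0.0188, 0.122, -0.102 and -0.027 in their deviations from the stage means. With the replicate number as a block, 15 of the 42 genes and 9 of the other matrix genes were higher. Over all annotated loci 970 were higher in that fit, against 1390 in the main fit. The files hold no counts, so the error of low values such as those of Vtn, Hapln1, Spp1 and Cilp could not be separated from the spread between hearts.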
